A study of Mus musculus with 42 samples.

Results

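Spleens of female BALB/c mice were compared 9 h and 3 h after a single intraperitoneal dose of 400 µg of CpG oligodeoxynucleotides, to ask which early transcripts had already gone down and which appeared in a second wave. The 4 arrays labelled CpG ODN at 9 h were set against the 4 labelled CpG ODN at 3 h, 8 of the 42 arrays of the series, over every gene with a value on at least 3 arrays of each group. The CpG 9 h and CpG 3 h mice received an equimolar mixture of the CpG oligodeoxynucleotides 1555 and 1466. The untreated mice, with 6 arrays, were of the same strain and sex and were not treated. Control oligodeoxynucleotides (1612 and 1471) were arrayed at 3 h only, with 4 arrays, so no injected control was analysed here at 9 h. No source used here gives the ages of the mice or the hour of the day, so time after injection and time of day cannot be told apart. The series describes the arrays of a group as independent biological replicates.

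CpG oligodeoxynucleotides are short DNAs with unmethylated CpG motifs. They bind TLR9, an endosomal receptor that in the mouse is found in B cells, dendritic cells and macrophages, and signal through MyD88 to NF-kB and to interferon regulatory factors. Immediate early genes, cytokines and chemokines are made first, together with inhibitors such as IκB proteins, A20 and SOCS3 that shut the signal down, and many of the messages are short-lived. Interferons and cytokines made in this first phase then act on other cells, which gives later waves of genes.

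Each value is a log2 ratio of spleen cDNA over a reference cDNA made from mixed mouse tissues and cells, so 0 means equal signal to the reference and levels of different genes cannot be ranked by it. Of 30601 features, 23485 carry 1 gene symbol and gave 15277 genes, of which 15115 could be tested. Between 173 and 1139 features had no value on each of the 8 arrays, with the highest number on CpG 9 h replicate 2. The CpG 9 h arrays resembled each other less than the CpG 3 h arrays did, with correlations over features of 0.824 to 0.917 among the CpG 9 h arrays and 0.911 to 0.934 among the CpG 3 h arrays. B cell genes averaged 2.33 to 2.65 on the CpG 9 h arrays and 2.31 to 2.61 on the CpG 3 h arrays, and T cell, NK cell and erythroid lists were also above the reference on all of them. Spleen stroma and matrix genes averaged -0.69 to -0.46 on the CpG 9 h arrays and -0.76 to -0.47 on the CpG 3 h arrays, and plasma cell genes were also below the reference. Genes of pancreas acinar cells split both groups in the same way. Their mean was 6.11 and 5.25 on CpG 9 h replicates 2 and 3 and 0.36 and 0.53 on replicates 1 and 4, against 5.37 and 5.58 on CpG 3 h replicates 1 and 3 and 0.23 and 0.41 on replicates 2 and 4. With that mean as a covariate 228 genes were called, 212 of them among the 218 described next.

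Most of what changed between the 2 times went down. limma called 218 genes at an adjusted p below 0.05 (1.44% of 15115), 174 lower at 9 h (1.15%) and 44 higher (0.291%). Its unadjusted p was below 0.05 for 1576 of the 15115. The 174 lower genes had a median log2 difference (CpG 9 h minus CpG 3 h) of -0.90 and the 44 higher genes one of 0.89, while the median over all genes tested was -0.01. A log2 difference of 1 is a doubling or halving, and 68 of the lower and 13 of the higher genes passed that size. Among 14503 genes measured on all 8 arrays the groups did not overlap for 1067 (7.36%), 685 of them lower and 382 higher at 9 h. The database numbers in the array titles form runs, and only CpG 3 h replicates 1 and 2 share a run with the CpG 9 h arrays. Against those 2 arrays alone 89 genes were called, 70 lower and 19 higher, and 85 of them were among the 218.

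**Figure D1:**
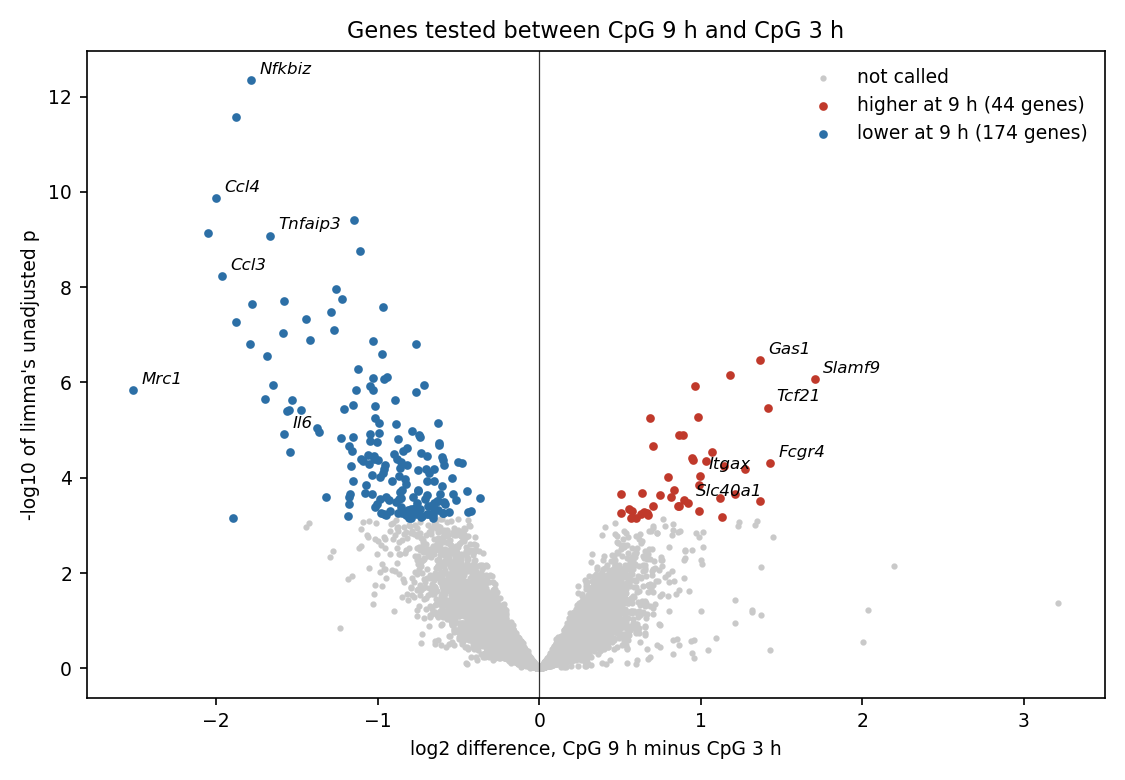
Each point is 1 of 15115 genes, with its log2 difference (CpG 9 h minus CpG 3 h) on the x axis and -log10 of limma's unadjusted p on the y axis. Blue marks the 174 genes called lower at 9 h and red the 44 called higher, and the blue points reach further from 0 and higher up than the red ones.

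Set against untreated spleens, the lower genes were mainly ones that were higher in CpG 3 h spleens. These 2 comparisons reuse the CpG arrays, so they place a gene and are no independent support. CpG 9 h spleens had 767 genes above untreated (5.07% of 15129) and 522 below (3.45%), and CpG 3 h spleens 1174 above (7.7% of 15253) and 600 below (3.93%). Of the 174 genes lower at 9 h than at 3 h, 138 were called above untreated at 3 h, of which 49 were also called above untreated at 9 h and 89 were not. Over the 138 the median level was 1.11 in CpG 3 h and 0.13 in CpG 9 h spleens. It was -0.19 in control oligodeoxynucleotide spleens at 3 h and -0.29 in untreated spleens. CpG and control oligodeoxynucleotides were not compared by a test here. A further 22 were called below untreated at 9 h, 17 of them with no call at 3 h, and 14 were in neither set. Of the 44 higher genes, 25 were called below untreated at 3 h, 10 were called above untreated at 9 h only, 5 at both times, and 4 in neither way. The genes that were higher at 9 h therefore included more that had been below untreated at 3 h than new arrivals.

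The promoters shown were chosen because they hold a match to a binding motif of NF-kB or of interferon-activated STAT factors. They do not stand for the other genes. Ccl3, Zfp46, Edn1, Tlr2, Ch25h, Birc3, Gadd45b and Il12b held no kB match, and Tnf held 1 that is not shown. Of the second-wave genes looked at, Itgax, Raver2, Sh2d1b1 and Psmb6 held no GAS match. Sequences are RefSeq promoters of the GRCm38.p6 build, from 250 bases before to 50 bases after the gene start, 5′ to 3′ on the strand of the gene. Cxcl1, Tnfaip3, Il6 and Cxcl10 were lower at 9 h than at 3 h, and capitals mark matches to the kB motif GGAANNTCC on either strand. Fcgr1 was higher at 9 h, and capitals mark the GAS motif TTCNNNGAA, which reads the same on both strands. Matches of different motifs may overlap.

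Cxcl1, chr5:90890995-90891294, plus strand: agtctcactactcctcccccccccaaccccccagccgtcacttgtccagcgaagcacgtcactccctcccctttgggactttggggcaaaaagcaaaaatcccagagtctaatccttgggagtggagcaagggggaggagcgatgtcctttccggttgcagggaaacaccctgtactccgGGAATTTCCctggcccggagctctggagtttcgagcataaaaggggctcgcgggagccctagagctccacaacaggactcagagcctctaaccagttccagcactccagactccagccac
Tnfaip3, chr10:19015361-19015660, minus strand: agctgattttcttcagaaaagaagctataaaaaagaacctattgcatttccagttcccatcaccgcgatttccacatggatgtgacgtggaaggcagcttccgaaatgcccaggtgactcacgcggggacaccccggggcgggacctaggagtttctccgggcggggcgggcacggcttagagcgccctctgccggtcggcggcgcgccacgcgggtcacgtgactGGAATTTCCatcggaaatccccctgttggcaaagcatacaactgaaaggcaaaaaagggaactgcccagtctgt
Il6, chr5:30012864-30013163, plus strand: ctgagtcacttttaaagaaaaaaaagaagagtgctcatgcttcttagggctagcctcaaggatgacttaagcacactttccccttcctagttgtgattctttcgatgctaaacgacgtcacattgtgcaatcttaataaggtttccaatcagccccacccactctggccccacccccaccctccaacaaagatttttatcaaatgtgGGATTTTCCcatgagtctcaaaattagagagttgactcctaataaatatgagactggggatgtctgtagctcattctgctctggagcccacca
Cxcl10, chr5:92348840-92349139, minus strand: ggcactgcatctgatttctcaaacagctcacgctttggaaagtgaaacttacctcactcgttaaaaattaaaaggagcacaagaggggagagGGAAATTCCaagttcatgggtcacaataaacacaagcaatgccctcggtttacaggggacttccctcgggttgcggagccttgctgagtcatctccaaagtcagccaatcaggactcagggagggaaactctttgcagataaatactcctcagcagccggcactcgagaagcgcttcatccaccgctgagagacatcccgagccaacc
Fcgr1, chr3:96293920-96294219, minus strand: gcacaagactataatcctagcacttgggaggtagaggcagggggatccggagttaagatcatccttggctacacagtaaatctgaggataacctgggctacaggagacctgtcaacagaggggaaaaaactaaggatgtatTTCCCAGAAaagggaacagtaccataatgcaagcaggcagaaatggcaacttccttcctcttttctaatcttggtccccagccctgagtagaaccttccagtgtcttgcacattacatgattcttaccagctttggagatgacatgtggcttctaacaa

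A kB match began 70 bases before the start in Cxcl1, 24 before it in Tnfaip3, 43 before it in Il6 and 158 before it in Cxcl10. Of the genes lower at 9 h, 135 had a promoter in the table and 12 of these held a kB match (8.89%), against 5.09% of 11974 tested genes with a promoter and 4.26% of all 32851 promoters. An ISRE-like motif, AAANNGAAA on either strand, stood in 23 of the 135 (17.0%) and in 10.6% of all promoters. The CRE motif TGACGTCA stood in 8 of the 135 (5.93%), against 3.0% of tested genes with a promoter. The AP-1 motif TGANTCA stood in 12 (8.89%, against 7.29%) and the E-box CACGTG in 5 (3.70%, against 10.6%). Of the 38 promoters of genes higher at 9 h, 6 held AP-1, 6 the E-box (15.8% each), 4 ISRE-like (10.5%), 1 kB and 1 CRE (2.63% each). The GAS motif stood in 13 of the 135 (9.63%) and in 4 of the 38 promoters of genes higher at 9 h (10.5%), near its share of 8.30% in all promoters. These shares describe letters in a short window and carry no test.

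Nfkbiz, which encodes the atypical IκB protein IκBζ, had the lowest p of all 15115 genes. Its log2 ratios were 0.45, 0.55, 0.59 and 0.88 in CpG 9 h spleens, against 2.12, 2.72, 2.37 and 2.40 in CpG 3 h spleens, and -1.77, -1.17 and -1.03 (lowest, median, highest of 6) in untreated spleens. All 4 CpG 9 h values lay below all CpG 3 h values and above all untreated ones. The difference was -1.78 ± 0.17 (standard error, adjusted p = 6.86e-09).

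Tnfaip3, the gene of the ubiquitin-editing inhibitor A20, stood at 1.05, 0.41, 1.31 and 1.88 in CpG 9 h spleens, against 2.81, 2.87, 2.89 and 2.75 in CpG 3 h spleens. The CpG 3 h values were tightly grouped and the CpG 9 h values spread over more than 1 unit without reaching them (difference -1.67 ± 0.21, adjusted p = 2.09e-06). Birc3, which encodes the apoptosis inhibitor cIAP2, differed by -1.27 ± 0.19 (adjusted p = 7.1e-05), and Gadd45b, a stress-induced gene, by -1.16 ± 0.24 (adjusted p = 0.00539). For Nfkbia, the gene of IκBα, the ratios were 1.28, 0.83, 1.11 and 1.33 in CpG 9 h spleens, against 1.88, 1.95, 1.89 and 2.26 in CpG 3 h spleens (-0.86 ± 0.21, adjusted p = 0.0231). The Nfkbia groups did not overlap, but the call was lost without CpG 9 h replicate 2 (-0.76, adjusted p = 0.102), CpG 9 h replicate 3 (-0.85, adjusted p = 0.0558) or CpG 3 h replicate 4 (-0.77, adjusted p = 0.101). Against the 2 CpG 3 h arrays of the same run Nfkbia differed by -0.78 (adjusted p = 0.238) and Gadd45b by -0.95 (adjusted p = 0.186), neither called.

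Of the 21 tested NF-kB targets and feedback inhibitors 10 were called lower and 0 higher (47.6%, against 1.15% of all genes), and 20 of 21 differences were below 0, with a median of -0.79. The other 5 called members were Nfkbid (-0.87) and Tnip1 (-0.86), which encode further inhibitors of the pathway, Cflar (-0.79), which encodes the caspase-8 inhibitor c-FLIP, Tnfaip2 (-0.73) and Sod2 (-0.65), the mitochondrial superoxide dismutase. The list averaged 1.17, 0.97, 1.12 and 0.99 on the CpG 9 h arrays, against 1.95, 1.83, 1.89 and 1.96 on the CpG 3 h arrays and 0.38 to 0.70 on the untreated arrays. The 3 groups of arrays did not overlap on this mean. Leaving out 1 array at a time left 8 to 10 members called, and 4 were called against the CpG 3 h arrays of the same run.

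**Figure D2:**
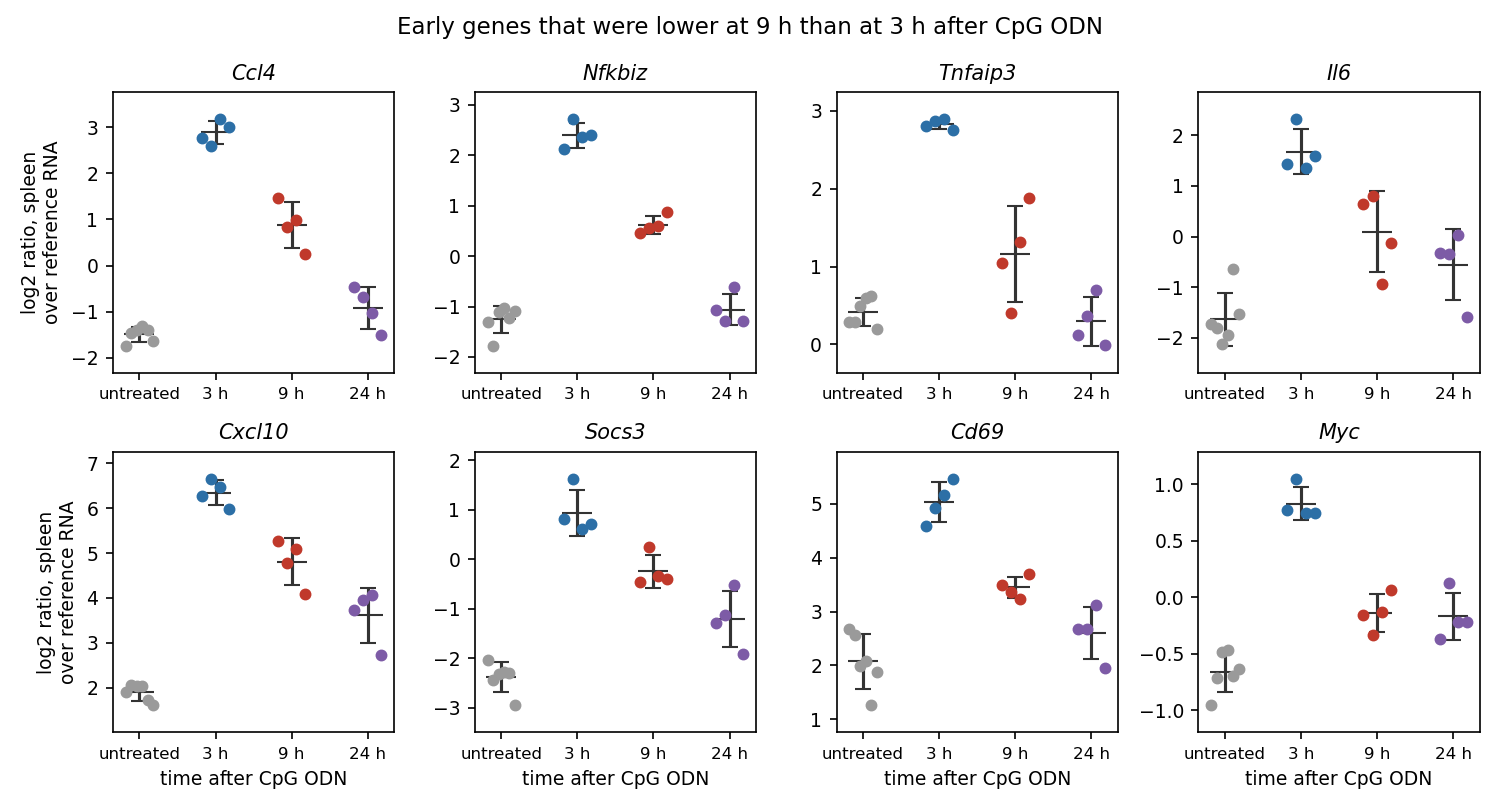
Log2 ratio of spleen over reference RNA on every array (points) for 8 genes in untreated spleens and 3 h, 9 h and 24 h after CpG ODN, with the group mean and SD (bars). In each panel the CpG 9 h points lie below the CpG 3 h points, and in all panels but those of Tnfaip3 and Il6 they also lie above every untreated point.

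The chemokines fell in part. Ccl4, which encodes the chemokine MIP-1β, stood at 1.46, 0.85, 0.99 and 0.24 in CpG 9 h spleens, against 2.77, 2.60, 3.18 and 3.01 in CpG 3 h spleens and -1.74, -1.43 and -1.32 (lowest, median, highest) in untreated spleens. No CpG 9 h array reached a CpG 3 h array, yet every one was above every untreated array (-2.0 ± 0.23, adjusted p = 6.96e-07). Its neighbour in function, Ccl3 (MIP-1α), had -1.26, -1.76, -1.15 and -2.20 in CpG 9 h spleens, against 0.02, -0.04, 0.70 and 0.80 in CpG 3 h spleens (-1.96 ± 0.26, adjusted p = 1.11e-05).

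Cxcl10, which encodes the CXCR3 ligand IP-10, was at 5.28, 4.78, 5.10 and 4.08 in CpG 9 h spleens, against 6.28, 6.66, 6.48 and 5.99 in CpG 3 h spleens and 1.96 in the median untreated spleen (-1.54 ± 0.32, adjusted p = 0.00548). So it was lower at 9 h and still far above untreated. Cxcl1, the neutrophil chemoattractant KC, had a value on only 3 CpG 9 h arrays, -3.17, -4.01 and -2.69, against -1.78, -1.31, -1.73 and -1.54 in CpG 3 h spleens (-1.70 ± 0.30, adjusted p = 0.000828). Cxcl2, a related neutrophil chemoattractant, was at 0.22, 0.01, 0.05 and 1.76 in CpG 9 h spleens, against 1.59, 1.56, 1.77 and 1.73 in CpG 3 h spleens (-1.15 ± 0.23, adjusted p = 0.0032). Its CpG 9 h replicate 4 lay within the CpG 3 h range while the other 3 arrays lay between the untreated and the CpG 3 h ranges.

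Other chemokines did not pass the test. Ccl12, a monocyte chemoattractant, was at 4.67, 4.82, 4.45 and 2.08 in CpG 9 h spleens, against 4.26, 4.48, 4.02 and 3.75 in CpG 3 h spleens and -0.67 in the median untreated spleen (-0.12 ± 0.34, adjusted p = 0.963). Cxcl9, the other interferon-induced CXCR3 ligand of the list, averaged 4.98 ± 0.78 in CpG 9 h spleens and 5.36 ± 0.19 in CpG 3 h spleens (SD, n = 4 each), with overlapping groups (limma, adjusted p = 0.836). Of 24 chemokines tested 8 were called lower and 0 higher (33.3%, against 1.15% of all genes), with a median of -0.33. Leaving out 1 array left 6 to 8 called, the median was -0.17 without CpG 9 h replicate 4, and 5 were called within the shared run. The other called members were Ccl24 (-1.29), Cxcl5 (-1.03) and Ccl17 (-0.96).

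Among cytokines, Il6 was at 0.64, 0.80, -0.94 and -0.12 in CpG 9 h spleens, against 1.43, 2.32, 1.36 and 1.60 in CpG 3 h spleens and -1.77 in the median untreated spleen. The groups did not overlap (-1.58 ± 0.31, adjusted p = 0.00297). Tnf stood at 2.10, 1.85, 1.74 and 1.29 in CpG 9 h spleens, against 3.25, 1.71, 2.67 and 3.72 in CpG 3 h spleens. CpG 3 h replicate 2 lay within the CpG 9 h range, and without CpG 3 h replicate 4 the call was lost (-0.80, adjusted p = 0.0832, against -1.09 ± 0.24, adjusted p = 0.00721, with all arrays). The Tnf difference within the shared run was -0.74 (adjusted p = 0.332).

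Il12b, which encodes the chain shared by IL-12 and IL-23, had 3.64, 3.24, 2.97 and 3.01 in CpG 9 h spleens, against 4.08, 4.37, 4.14 and 3.67 in CpG 3 h spleens and 0.42 in the median untreated spleen. It had given up only part of its rise (-0.85 ± 0.20, adjusted p = 0.0208), and its call was lost without CpG 9 h replicate 3 (-0.77, adjusted p = 0.0831), CpG 9 h replicate 4 (-0.78, adjusted p = 0.0598), CpG 3 h replicate 2 (-0.75, adjusted p = 0.101) or CpG 3 h replicate 3 (-0.82, adjusted p = 0.068). Il15, a growth factor of NK and memory T cells, differed by -1.02 ± 0.19 (adjusted p = 0.00105), and Csf1, the macrophage growth factor, by -0.76 ± 0.20 (adjusted p = 0.0431).

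Il10, an anti-inflammatory cytokine, was among the cytokines not called. It stood at 0.93, 0.54, 1.48 and 0.85 in CpG 9 h spleens, against 0.44, 0.93, 0.92 and 0.72 in CpG 3 h spleens and -1.05 in the median untreated spleen. The CpG groups overlapped and no difference was detectable with these arrays (0.19 ± 0.22, adjusted p = 0.876). Ifng and Ifnb1, the genes of interferon-γ and interferon-β, also gave no call (0.30 ± 0.21, adjusted p = 0.705, for Ifng, and 0.03 ± 0.17, adjusted p = 0.992, for Ifnb1 with 3 CpG 9 h arrays). Il1b had a negative difference without a call (-0.68 ± 0.38, limma, adjusted p = 0.568). Of 24 cytokines 5 were called lower and 0 higher (20.8%, against 1.15% of all genes), with a median of -0.23. Their differences were below 0 for 18 and above 0 for 6. The count was 3 without CpG 9 h replicate 3, without CpG 3 h replicate 3 and within the shared run, and the median was -0.14 without CpG 3 h replicate 4.

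Some negative regulators of cytokine and MAP kinase signalling were lower as well. Socs3, an inhibitor of IL-6 family signalling, was at -0.46, 0.26, -0.34 and -0.40 in CpG 9 h spleens, against 0.82, 1.63, 0.61 and 0.71 in CpG 3 h spleens and -2.31 in the median untreated spleen (-1.18 ± 0.29, adjusted p = 0.0264). The groups did not overlap, but without CpG 3 h replicate 2 the difference was -0.95 (adjusted p = 0.154), and the call was also lost without CpG 9 h replicate 1, 3 or 4 (-1.10, -1.15 and -1.12, adjusted p = 0.0875, 0.0719 and 0.0617). Socs1, an inhibitor of interferon signalling, averaged 2.05 ± 0.29 in CpG 9 h spleens and 2.21 ± 0.17 in CpG 3 h spleens (SD, n = 4 each) and was not called by limma (adjusted p = 0.886). Spred1 (-0.71) and Dusp16 (-0.67), both inhibitors in MAP kinase pathways, and Dusp1 were the other members called, so 4 of 18 were lower and 0 higher (22.2%, against 1.15% of all genes). The count was 1 without CpG 9 h replicate 1, 2 without CpG 9 h replicate 2 or 3 or CpG 3 h replicate 2 or 3, and 2 within the shared run. The Dusp16 call was lost without CpG 9 h replicate 1 or 2 or CpG 3 h replicate 2, 3 or 4 (-0.68 to -0.62, adjusted p = 0.0711 to 0.111), and within the shared run it differed by -0.60 (adjusted p = 0.301).

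Few immediate early genes passed the test. Myc, a growth-promoting transcription factor, was at -0.16, -0.34, -0.13 and 0.06 in CpG 9 h spleens, against 0.77, 1.05, 0.74 and 0.75 in CpG 3 h spleens (-0.97 ± 0.14, adjusted p = 2.99e-05), and Ier5 was also called (-0.95 ± 0.23, adjusted p = 0.026). The Ier5 call was lost without CpG 9 h replicate 1 (-0.90, adjusted p = 0.081), CpG 9 h replicate 3 (-0.94, adjusted p = 0.0612) or CpG 3 h replicate 2 (-0.77, adjusted p = 0.153), and within the shared run it differed by -1.14 (adjusted p = 0.0501). Fos averaged -3.21 ± 0.76 in CpG 9 h spleens and -2.50 ± 0.26 in CpG 3 h spleens (SD, n = 4 each; limma, adjusted p = 0.286). Egr1 was not called between the times, nor at either time against untreated. In the list of 27 immediate early and AP-1 genes 2 were called lower and 0 higher (7.41%, against 1.15% of all genes), while 24 of the 27 differences were below 0 (median -0.23). Without CpG 9 h replicate 1 or 3 or CpG 3 h replicate 2, and within the shared run, 1 of the 27 was called.

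The Toll-like receptor and macrophage effector lists had 2 called genes each, a larger share than that of all genes. Cd14, the co-receptor that passes ligands to Toll-like receptors, was at 0.00, 0.03, 0.24 and 1.87 in CpG 9 h spleens, against 2.45, 2.12, 2.48 and 2.60 in CpG 3 h spleens (-1.88 ± 0.28, adjusted p = 5.08e-05). CpG 9 h replicate 4 stood well above the other 3 but below every CpG 3 h array. Tlr2, the receptor of bacterial lipoproteins, had 0.31, 0.80, 0.69 and 0.52 in CpG 9 h spleens, against 2.24, 1.83, 2.31 and 2.68 in CpG 3 h spleens and 0.26 in the median untreated spleen (-1.69 ± 0.27, adjusted p = 0.000174). Tlr9 itself was not called (-0.10, adjusted p = 0.951), and Cd14 and Tlr2 were the 2 called of 26 genes of the Toll-like receptor pathway (7.69%, against 1.15% of all genes).

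Cd69, an early activation marker of lymphocytes, stood at 3.49, 3.36, 3.23 and 3.70 in CpG 9 h spleens, against 4.59, 4.92, 5.16 and 5.46 in CpG 3 h spleens and 2.04 in the median untreated spleen (-1.59 ± 0.24, adjusted p = 7.78e-05). The costimulatory ligand genes Cd86 (-0.99 ± 0.20, adjusted p = 0.00289) and Cd80 (-0.90 ± 0.19, adjusted p = 0.00594) were lower as well. CpG 9 h means of 2.97 for Cd86 and 0.55 for Cd80 were close to the untreated means of 3.01 and 0.60. Control oligodeoxynucleotide spleens at 3 h averaged 3.53 for Cd86 and 1.36 for Cd80, against 3.96 and 1.44 in CpG 3 h spleens. Cd86 was not called within the shared run (-0.83, adjusted p = 0.128). With Cd69 they made 3 of 18 co-stimulatory and checkpoint genes called lower and 0 higher (16.7%, against 1.15% of all genes).

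Fas, a death receptor, was at 0.86, 1.19, 0.28 and 0.97 in CpG 9 h spleens, against 2.18, 1.95, 2.43 and 2.51 in CpG 3 h spleens (-1.44 ± 0.21, adjusted p = 4.71e-05). Casp4 (-1.02 ± 0.19, adjusted p = 0.00166), whose mouse product is the inflammatory caspase-11, and Bcl2l11 (-0.59 ± 0.13, adjusted p = 0.00801), which encodes the pro-apoptotic protein BIM, were lower as well. With Fas they made 3 of 18 BCL-2 family and death genes called lower and 0 higher (16.7%, against 1.15% of all genes). The Bcl2l11 groups overlapped, and it was not called within the shared run (-0.46, adjusted p = 0.27), which left 2 of the 18. Without CpG 9 h replicate 4 the median of the list was -0.06, against -0.15 with all arrays. Casp4 stayed above untreated at 9 h, with a mean of 1.72 ± 0.29 in CpG 9 h spleens, 2.73 ± 0.09 in CpG 3 h spleens (SD, n = 4 each) and -0.23 ± 0.28 in untreated spleens (SD, n = 6).

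Ch25h, which makes the antiviral oxysterol 25-hydroxycholesterol, came down to the untreated level: 0.26, -0.25, 0.37 and 0.14 in CpG 9 h spleens, against 1.22, 2.10, 1.63 and 1.88 in CpG 3 h spleens and -0.12 in the median untreated spleen (-1.58 ± 0.22, adjusted p = 2.75e-05). Mmp13, a collagenase, averaged 0.85 ± 0.49 in CpG 9 h spleens and 2.00 ± 0.51 in CpG 3 h spleens (SD, n = 4 each), without overlap (limma, adjusted p = 0.00102). Ch25h and Mmp13 were the 2 called of 24 macrophage effector and acute-phase genes (8.33%, against 1.15% of all genes). Nos2, Lcn2 and the other 20 tested genes of this list were not called, and Lcn2, a siderophore-binding protein, had a positive difference of 0.70 ± 0.35 (adjusted p = 0.494).

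The remaining early decliners named were Edn1, Adamts4 and Zfp46. Edn1, which encodes the vasoconstrictor endothelin-1, averaged -1.13 ± 0.30 in CpG 9 h spleens and 0.65 ± 0.22 in CpG 3 h spleens. Adamts4, an aggrecan-cleaving protease, averaged -1.10 ± 0.32 in CpG 9 h spleens and 0.69 ± 0.15 in CpG 3 h spleens, and Zfp46, a zinc finger protein, -0.13 ± 0.41 in CpG 9 h spleens and 1.75 ± 0.25 in CpG 3 h spleens (SD, n = 4 each). None of the 3 pairs of groups overlapped (limma, adjusted p = 2.84e-05 for Edn1, 0.000108 for Adamts4 and 2.07e-08 for Zfp46). For these 3 and Ccl4, Ccl3, Cd14, Nfkbiz, Tlr2, Tnfaip3, Cd69, Il6 and Ch25h, 12 in all, the call was kept without any 1 of the 8 arrays, and against the CpG 3 h arrays of the same run the 12 differences ran from -2.0 to -1.31, all called.

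Most genes of the interferon lists were not called between the 2 times. Ifit1, an antiviral protein that binds foreign RNA, was at 3.74, 4.28, 3.60 and 3.95 in CpG 9 h spleens, against 3.85, 3.78, 3.97 and 3.55 in CpG 3 h spleens and 0.72 in the median untreated spleen. The CpG groups overlapped throughout (0.10 ± 0.19, adjusted p = 0.926). Isg15, the ubiquitin-like modifier, and Irf7, a factor that amplifies interferon production, likewise were not called (-0.07 ± 0.27, adjusted p = 0.975, and 0.37 ± 0.25, adjusted p = 0.689), and all 3 genes were called above untreated at both times. Usp18 (-0.75 ± 0.27, limma, adjusted p = 0.204) and Gbp2 (-0.67 ± 0.29, adjusted p = 0.361) had larger negative differences but were not called either.

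Within the list of type I interferon-stimulated genes, those of 2 cytosolic RNA sensors were called lower. Ifih1, the gene of MDA5, was at 3.87, 3.97, 3.77 and 4.11 in CpG 9 h spleens, against 5.04, 4.93, 4.97 and 5.32 in CpG 3 h spleens (-1.13 ± 0.20, adjusted p = 0.000585). Eif2ak2, the gene of the kinase PKR, was at 2.13, 2.59, 2.12 and 2.38 in CpG 9 h spleens, against 3.50, 3.65, 3.20 and 3.00 in CpG 3 h spleens (-1.03 ± 0.18, adjusted p = 0.000585). They were the 2 called of 26 type I interferon-stimulated genes (7.69%, against 1.15% of all genes), 19 of which had differences below 0. An unadjusted limma p below 0.05 was found for 9 of the 26, against 1576 of all 15115 genes. The list averaged 2.96, 3.07, 2.66 and 2.76 on the CpG 9 h arrays, against 3.27, 2.81, 2.99 and 3.14 on the CpG 3 h arrays and 0.60 to 0.87 on the untreated arrays, so the CpG groups overlapped and both lay far above untreated. Without 1 array 2 or 3 members of the list were called lower and 0 to 2 higher, with medians of -0.31 to -0.11, the nearest to 0 without CpG 3 h replicate 1. Other interferon-inducible genes outside the list were called lower, among them the p200 family genes Ifi205 (-1.11 ± 0.14, adjusted p = 3.83e-06), Ifi202b (-1.0 ± 0.20, adjusted p = 0.00381) and Ifi204 (-0.99 ± 0.23, adjusted p = 0.0125), and Rnf213 (-0.75 ± 0.17, adjusted p = 0.00935), a ubiquitin ligase. In each of these 4 genes the CpG groups did not overlap. The p200 family has closely related members that its probes may share. None of 23 interferon-γ-induced GTPase and antigen processing genes was called by limma (3 had an unadjusted p below 0.05), with a median of -0.07.

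**Figure D3:**
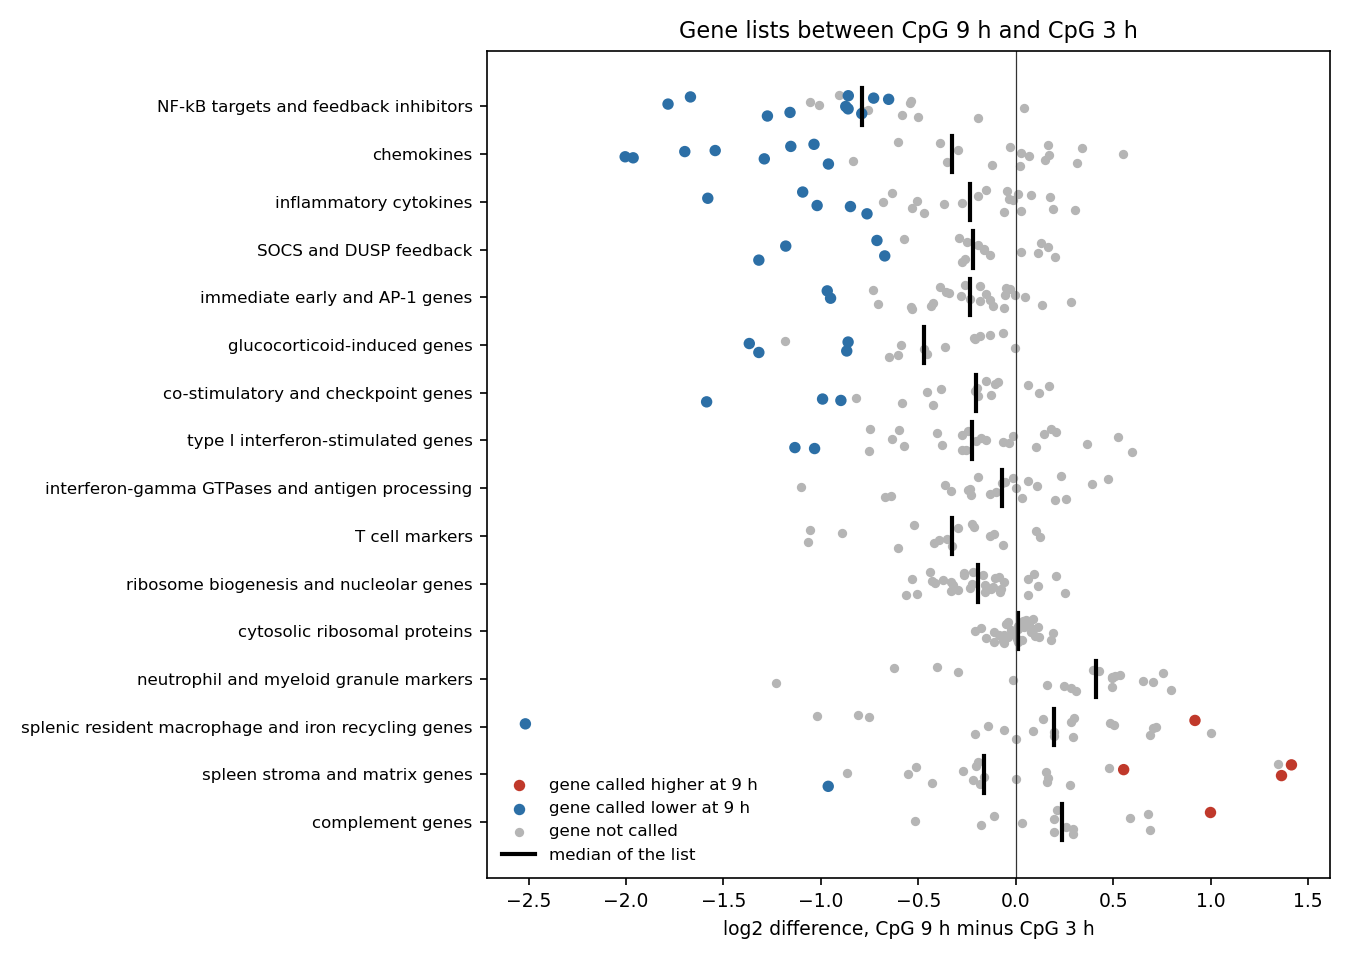
Log2 difference (CpG 9 h minus CpG 3 h) of each tested member of 16 gene lists, with the list median as a black bar, red for genes called higher at 9 h and blue for genes called lower. The NF-kB list lies almost wholly to the left of 0, with 10 of 21 members called, while the ribosomal protein list is centred on 0.

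The list of genes that glucocorticoids are known to induce split the CpG 9 h arrays. All 17 differences were below 0 (median -0.47). The 4 called lower (23.5%, against 1.15% of all genes) were Mt2, a metallothionein (-1.37 ± 0.27, adjusted p = 0.00285), Dusp1, a MAP kinase phosphatase (-1.32 ± 0.33, adjusted p = 0.026), Errfi1, an inhibitor of EGF receptor signalling (-0.87 ± 0.22, adjusted p = 0.027), and Nfkbia, described above. Errfi1 rests on 2 features of opposite direction, and its CpG groups overlapped. The list mean was -0.06, 0.09, 0.40 and 1.24 on the CpG 9 h arrays, against 1.01, 0.85, 1.06 and 1.01 on the CpG 3 h arrays. CpG 9 h replicate 4 stood above every CpG 3 h array and the other 3 below every one.

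Dusp1 shows the same split, with -1.21, -0.67, -0.57 and 1.45 in CpG 9 h spleens, against 1.41, 0.94, 1.29 and 0.64 in CpG 3 h spleens. Fkbp5, a standard glucocorticoid target, had 0.39, -0.06, 0.82 and 1.70 in CpG 9 h spleens, against 1.26, 1.13, 1.29 and 1.06 in CpG 3 h spleens, and was not called (adjusted p = 0.764). Its mean was 0.64 in control oligodeoxynucleotide spleens at 3 h and -0.84 in untreated spleens. Without CpG 9 h replicate 4 the list median was -0.80 with 7 of 17 called, and without any other single array it lay between -0.54 and -0.22 with 1 to 3 called. The Dusp1 call was lost without CpG 9 h replicate 1, 2 or 3 or CpG 3 h replicate 1 or 3 (-1.24 to -1.0, adjusted p = 0.0912 to 0.176), and the Errfi1 call without CpG 9 h replicate 1 or 2 or any CpG 3 h replicate (-0.89 to -0.67, adjusted p = 0.0518 to 0.176). Within the shared run 0 of the 17 were called, with a median of -0.48, and Mt2 (-1.07, adjusted p = 0.166), Dusp1 (-1.42, adjusted p = 0.119) and Errfi1 (-0.94, adjusted p = 0.125) kept their direction. Of 17 circadian clock genes 0 were called by limma (1 with an unadjusted p below 0.05), with a median of -0.09, and Per1 and Dbp gave -0.21 ± 0.34 and 0.01 ± 0.20.

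**Figure D4:**
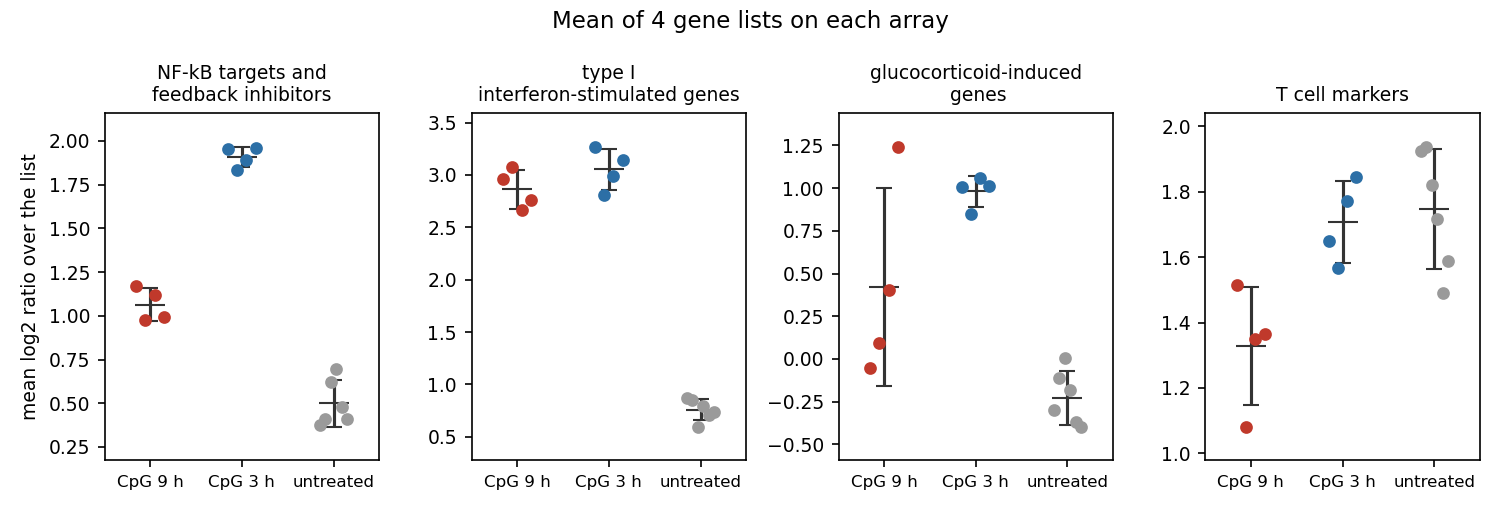
Mean log2 ratio over 4 gene lists on each CpG 9 h, CpG 3 h and untreated array (points), with the group mean and SD (bars). The NF-kB list separates the 3 groups, the interferon-stimulated list separates only CpG from untreated, and the glucocorticoid-induced list has 1 CpG 9 h array at 1.24 and the other 3 at or below 0.40.

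Some genes called below untreated at 3 h had partly come back by 9 h. Tcf21, a factor of mesenchymal cells without which mice form no spleen, was at 4.43, 4.00, 3.99 and 4.61 in CpG 9 h spleens, against 2.37, 3.23, 2.81 and 2.97 in CpG 3 h spleens and 4.63, 5.76 and 5.95 (lowest, median, highest) in untreated spleens. Every CpG 9 h array lay above every CpG 3 h array and below every untreated one (1.42 ± 0.26, adjusted p = 0.00113). In these bulk samples fewer cells of a type and less RNA per cell cannot be told apart. Gas1, a co-receptor of hedgehog ligands, averaged -3.82 ± 0.36 in CpG 9 h spleens and -5.18 ± 0.30 in CpG 3 h spleens (SD, n = 4 each), against -3.08 ± 0.53 in untreated spleens (SD, n = 6), and was called (1.36 ± 0.22, limma, adjusted p = 0.000207).

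Slc40a1 encodes ferroportin, the iron exporter of red pulp macrophages, and is known to be repressed during inflammation. It was at 3.13, 3.17, 3.78 and 3.92 in CpG 9 h spleens, against 2.94, 2.66, 2.65 and 2.08 in CpG 3 h spleens and 5.26 in the median untreated spleen (0.92 ± 0.23, adjusted p = 0.0307). The CpG groups did not overlap and both lay below untreated, while CpG 24 h spleens were at 5.11 to 5.58. Its call was lost without CpG 9 h replicate 3 or 4 or CpG 3 h replicate 2, 3 or 4 (0.75 to 0.95, adjusted p = 0.0605 to 0.164), and within the shared run it differed by 0.70 (adjusted p = 0.395).

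The other genes named by this pattern were 6 in number. Slc45a3 (1.18 ± 0.20), a membrane transporter, Tmem273 (0.96 ± 0.17) and Hhex (0.95 ± 0.20), a homeobox factor of blood and endothelial cells, kept their calls without any 1 array. Arvcf (1.14 ± 0.25), a catenin, lost its call without CpG 3 h replicate 4 (0.97, adjusted p = 0.0645). Pla2g15 (0.99 ± 0.23), a lysosomal phospholipase, lost it without CpG 9 h replicate 3 or CpG 3 h replicate 1 or 2 (0.84, 0.94 and 0.93, adjusted p = 0.0954, 0.0571 and 0.0675). Kcnj10 (0.99 ± 0.26), a potassium channel gene, lost it without any 1 of the 8 arrays (0.95 to 1.02, adjusted p = 0.0619 to 0.111). Within the shared run Arvcf (0.92, adjusted p = 0.236), Kcnj10 (1.06, adjusted p = 0.166) and Hhex (0.81, adjusted p = 0.181) were not called.

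The second wave was small. Fcgr1, the high-affinity IgG receptor CD64 of monocytes and macrophages and a known interferon-γ target, was at 1.88, 1.87, 1.53 and 1.09 in CpG 9 h spleens, against 0.57, 0.27, 0.50 and 0.54 in CpG 3 h spleens and 0.32, 0.45 and 0.56 (lowest, median, highest) in untreated spleens. CpG 3 h and untreated arrays covered the same range and every CpG 9 h array lay above both (1.12 ± 0.28, adjusted p = 0.027). Control oligodeoxynucleotide spleens at 3 h were at 0.60 to 1.32, above every CpG 3 h and untreated array and overlapping the CpG 9 h arrays. The call was lost without CpG 9 h replicate 1, 2 or 3 or CpG 3 h replicate 2, 3 or 4 (1.03 to 1.14, adjusted p = 0.0537 to 0.101), and within the shared run the difference was 1.17 (adjusted p = 0.147).

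Itgax, which encodes the integrin chain CD11c of dendritic cells and some macrophages, stood at 3.33, 3.14, 3.73 and 3.43 in CpG 9 h spleens, against 2.14, 1.85, 2.58 and 3.08 in CpG 3 h spleens and 2.56 in the median untreated spleen. The CpG groups did not overlap (1.00 ± 0.23, adjusted p = 0.012), and within the shared run the difference was 1.41 (adjusted p = 0.00249). The call was lost without CpG 9 h replicate 3 (0.89, adjusted p = 0.0641), CpG 3 h replicate 1 (0.91, adjusted p = 0.0583) or CpG 3 h replicate 2 (0.81, adjusted p = 0.101). Of 20 dendritic cell markers Itgax was the 1 called higher (5.0%, against 0.291% of all genes). Irf4 (-1.06 ± 0.23, adjusted p = 0.00618) and Id2 (-0.73 ± 0.15, adjusted p = 0.00561), transcription factors of dendritic cell subsets, were called lower (10.0%, against 1.15% of all genes). The list median was -0.26 and that of all genes -0.01. Without CpG 3 h replicate 3 Id2 was at -0.62 (adjusted p = 0.0531), and within the shared run neither Irf4 (-0.89, adjusted p = 0.186) nor Id2 (adjusted p = 0.256) was called.

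The other second-wave genes had no single function. Raver2, an RNA-binding protein, was at 1.99, 1.59, 2.12 and 2.23 in CpG 9 h spleens, against 1.23, 0.48, 1.04 and 1.26 in CpG 3 h spleens (0.98 ± 0.19, adjusted p = 0.00164), and Sh2d1b1, the adaptor EAT-2 of SLAM receptors, at 1.14, 1.38, 1.61 and 1.90 in CpG 9 h spleens, against 0.31, 0.51, 0.62 and 0.79 in CpG 3 h spleens (0.95 ± 0.21, adjusted p = 0.00711). Both kept their calls without any 1 array and within the shared run. Ang2, of the angiogenin family of secreted ribonucleases, was at 0.40, 3.03, 0.94 and 0.96 in CpG 9 h spleens, against -0.07, -0.16, 0.18 and 0.29 in CpG 3 h spleens (1.27 ± 0.28, adjusted p = 0.00913), with replicate 2 far above the other CpG 9 h arrays. Without that replicate the Ang2 difference was 0.71 (adjusted p = 0.0439). Its family has near-identical copies, and which of them its probe takes up was not tested.

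Lrp4, a receptor of the LDL receptor family, and Psmb6, a catalytic subunit of the constitutive proteasome, were called on narrower grounds (0.86 ± 0.22, adjusted p = 0.0344, and 0.57 ± 0.15, adjusted p = 0.0489). Lrp4 lost its call without CpG 9 h replicate 1, 2 or 3 or CpG 3 h replicate 1, 2 or 4 (0.75 to 0.91, adjusted p = 0.0508 to 0.146), and Psmb6 without any 1 array except CpG 3 h replicate 4 (0.51 to 0.59, adjusted p = 0.0649 to 0.178). Within the shared run Lrp4 differed by 0.80 (adjusted p = 0.27) and Psmb6 by 0.64 (adjusted p = 0.15). Psmb6 was the 1 called of 24 proteasome subunits (4.17%, against 0.291% of all genes), 18 of which had positive differences.

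A few genes were still climbing between 3 h and 9 h. Slamf9, a SLAM family receptor of myeloid cells, was at 2.07, 1.77, 2.21 and 0.52 in CpG 9 h spleens, against -0.35, -0.04, 0.23 and -0.10 in CpG 3 h spleens and -1.68, -1.01 and -0.24 (lowest, median, highest) in untreated spleens. It had the largest difference of the 44 higher genes (1.71 ± 0.29, adjusted p = 0.000413), and CpG 9 h replicate 4 was the lowest of its group but above all CpG 3 h arrays. Fcgr4, an activating IgG receptor of monocytes and macrophages, was at 4.21, 4.08, 3.76 and 3.95 in CpG 9 h spleens, against 3.19, 1.82, 2.92 and 2.35 in CpG 3 h spleens and 1.10 in the median untreated spleen (1.43 ± 0.31, adjusted p = 0.00753). Without CpG 3 h replicate 2 Fcgr4 was at 1.18 (adjusted p = 0.0678), and within the shared run at 1.49 (adjusted p = 0.068).

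Ly6f (1.03 ± 0.22, adjusted p = 0.00721), Cts7 (0.81 ± 0.20, adjusted p = 0.0261) and Cd300lf (0.75 ± 0.18, adjusted p = 0.0241), an inhibitory receptor of myeloid cells, were the remaining genes of this kind. Ly6f lost its call without CpG 3 h replicate 2 (0.88, adjusted p = 0.0584), Cts7 without CpG 9 h replicate 1, 3 or 4 or CpG 3 h replicate 1, 2 or 4 (0.73 to 0.80, adjusted p = 0.0512 to 0.113), and Cd300lf without CpG 9 h replicate 2 or CpG 3 h replicate 2 or 3 (0.59 to 0.69, adjusted p = 0.0952 to 0.153). Within the shared run Cd300lf differed by 0.73 (adjusted p = 0.187). Ms4a6d, a monocyte gene, had 6.96, 6.47, 6.24 and 5.87 in CpG 9 h spleens, against 5.54, 5.34, 5.84 and 5.55 in CpG 3 h spleens, a difference of 0.82 ± 0.24 that did not pass (adjusted p = 0.0758) although the groups did not overlap.

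**Figure D5:**
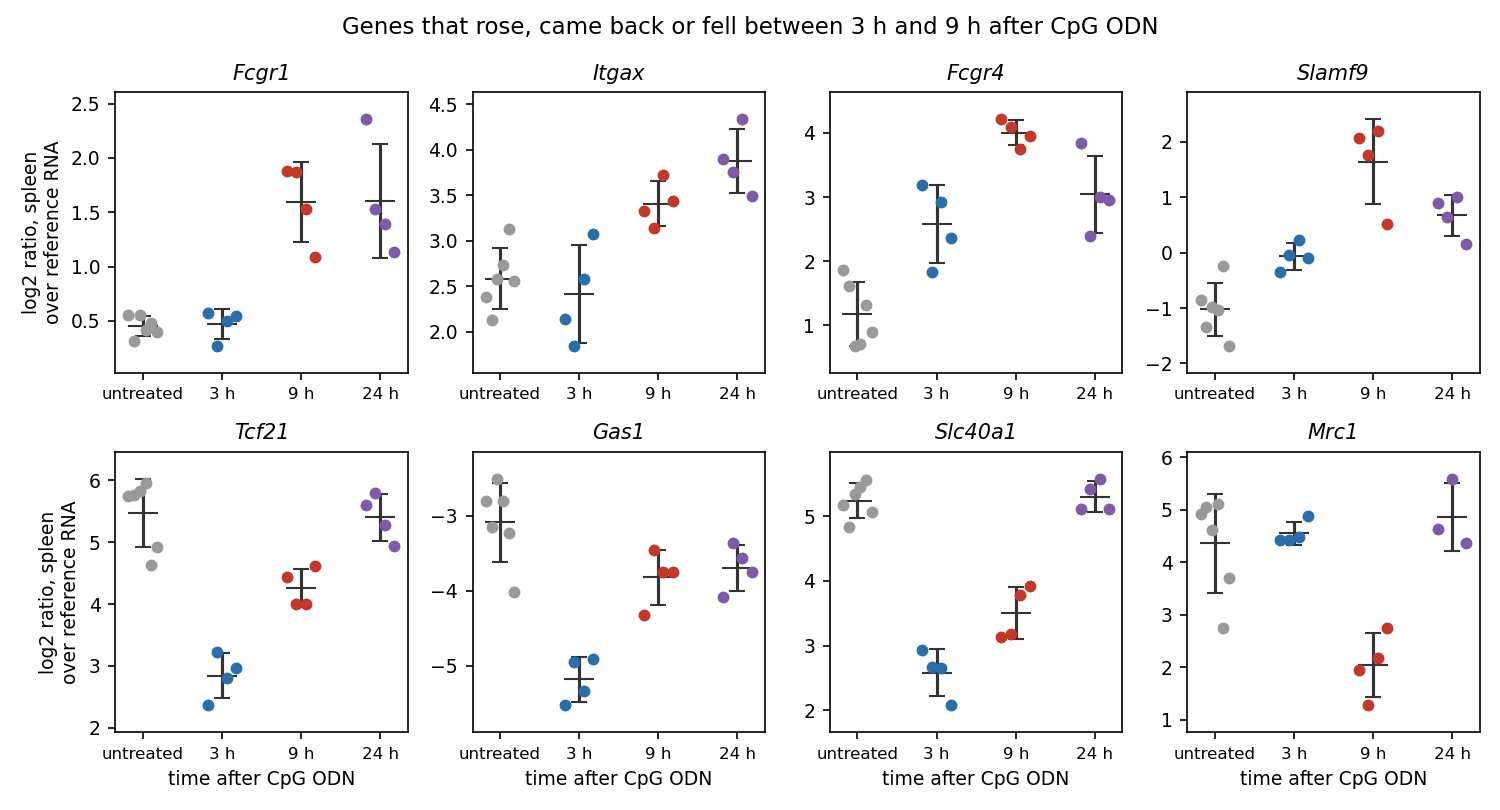
Log2 ratio of spleen over reference RNA on every array (points) for 8 genes in untreated spleens and 3 h, 9 h and 24 h after CpG ODN, with the group mean and SD (bars). Fcgr1 and Itgax are raised at 9 h but not at 3 h, Tcf21, Gas1 and Slc40a1 are lowest at 3 h, and Mrc1 is lowest at 9 h.

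The last pattern was a late fall. Mrc1, the macrophage mannose receptor, had the largest difference of all called genes. It was at 1.95, 1.28, 2.18 and 2.74 in CpG 9 h spleens, against 4.42, 4.43, 4.48 and 4.88 in CpG 3 h spleens and 2.76, 4.77 and 5.12 (lowest, median, highest) in untreated spleens (-2.52 ± 0.44, adjusted p = 0.000585). The CpG 3 h arrays lay within the untreated range, and at 24 h the 3 arrays with a value were back at 4.36 to 5.59.

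Slc15a2, a peptide transporter, showed the same course, with 1.39, 0.65, 1.67 and 1.33 in CpG 9 h spleens, against 3.04, 2.68, 3.32 and 2.60 in CpG 3 h spleens and 3.12 in the median untreated spleen (-1.65 ± 0.28, adjusted p = 0.000518). Ccl24, an eosinophil chemoattractant made by alternatively activated macrophages, was at -1.23, -0.87, -0.82 and -0.70 in CpG 9 h spleens, against 0.26, -0.05, 0.88 and 0.45 in CpG 3 h spleens and 0.97 in the median untreated spleen (-1.29 ± 0.19, adjusted p = 3.53e-05), and was already called below untreated at 3 h. Cadm1 (-1.05 ± 0.18, adjusted p = 0.000518), an adhesion molecule, and Lpl (-0.82 ± 0.17, adjusted p = 0.00476), lipoprotein lipase, were likewise lower at each step. These 4 and Mrc1 kept their calls without any 1 array, while within the shared run Lpl was at -0.79 (adjusted p = 0.0846).

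Adgre4, an adhesion receptor of macrophages, averaged 4.66 ± 0.41 in CpG 9 h spleens and 5.83 ± 0.12 in CpG 3 h spleens (SD, n = 4 each; limma, adjusted p = 0.00812), and lost its call without CpG 9 h replicate 2 (-1.03, adjusted p = 0.0555). Itga8 (-1.18 ± 0.32), Csdc2 (-1.17 ± 0.29) and Rbms3 (-1.07 ± 0.25), an integrin chain and 2 nucleic acid binding proteins, lost theirs without 4 to 6 of the 8 arrays in turn. Those were CpG 9 h replicates 1, 2 and 3 and CpG 3 h replicates 1, 3 and 4 for Itga8 (-1.23 to -1.03, adjusted p = 0.0793 to 0.176). For Csdc2 they were CpG 9 h replicates 1 and 2 and CpG 3 h replicates 2, 3 and 4 (-1.14 to -1.06, adjusted p = 0.0711 to 0.104), and for Rbms3 CpG 9 h replicates 2 and 4 and CpG 3 h replicates 2 and 3 (-1.05 to -0.87, adjusted p = 0.0574 to 0.118). Within the shared run Adgre4 (-1.06, adjusted p = 0.152), Itga8 (adjusted p = 0.406) and Csdc2 (-0.89, adjusted p = 0.368) were not called.

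Mrc1 and Slc40a1 were the only called genes among 22 of splenic resident macrophages and iron recycling, and they went opposite ways. Each made 4.5% of the list, against 1.15% of all genes called lower and 0.291% called higher. Of the 22 differences 15 were above 0 and 7 below 0 (median 0.20). In spleen stroma and matrix genes 3 of 21 were called higher at 9 h (14.3%, against 0.291% of all genes). They were Tcf21, Gas1 and Pdgfrb (0.55 ± 0.14, adjusted p = 0.0388), a pericyte receptor. Acta2, smooth muscle actin, was the 1 called lower (-0.96 ± 0.16, adjusted p = 0.000413), which is 4.76%, against 1.15% of all genes. The stroma and matrix list as a whole did not go up, with 12 of the 21 differences below 0 and 9 above 0 (median -0.16). The Pdgfrb call was lost without CpG 9 h replicate 1, 2 or 4 or CpG 3 h replicate 1, 3 or 4 (0.49 to 0.56, adjusted p = 0.0759 to 0.16), and within the shared run it differed by 0.47 (adjusted p = 0.344). Of the 3 Acta2 features, 1 went the other way.

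No marker of T cells, neutrophils, B cells or NK cells was called. Of 20 monocyte and macrophage markers Fcgr1 was called higher (5.0%, against 0.291% of all genes) and Cd14 lower (5.0%, against 1.15%). Of 13 plasma cell markers Irf4 was called lower (7.69%, against 1.15% of all genes). The dendritic cell markers are described above. Beside the counts at an unadjusted p below 0.05 given here, that of all genes tested was 1576 of 15115. Of 17 T cell markers 0 were called by limma, 7 had an unadjusted p below 0.05 and 15 differences were below 0 (median -0.33). The T cell list averaged 1.51, 1.08, 1.35 and 1.36 on the CpG 9 h arrays, against 1.65, 1.57, 1.77 and 1.85 on the CpG 3 h arrays, without overlap. Of 20 neutrophil and myeloid granule markers 0 were called, 3 with an unadjusted p below 0.05, and 15 differences were above 0 (median 0.41). Of 20 B cell markers 0 were called and 1 had an unadjusted p below 0.05 (median 0.00), and of 18 NK and cytotoxic markers 0 and 1 (median 0.16). The share of cell types in the changes above was not tested.

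No member of the growth and housekeeping lists passed the test. Of 28 mitotic and 36 DNA replication genes 0 were called, with 0 at an unadjusted p below 0.05 in each, and medians of -0.07 and -0.06. Of 32 ribosome biogenesis genes 0 were called, but 10 had an unadjusted p below 0.05 (against 1576 of all 15115 genes) and 26 differences were below 0 (median -0.20). Cytosolic ribosomal proteins had 0 of 34 called, 0 at an unadjusted p below 0.05 and a median of 0.01. Of 20 cholesterol synthesis, 17 glycolysis, 21 oxidative phosphorylation, 24 unfolded protein and heat shock, 23 erythroid and 22 endothelial genes 0 were called in each, with medians between -0.08 and 0.11 and 0 to 4 members at an unadjusted p below 0.05.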

How the data were processed

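Spleen RNA of 42 mice was measured on 2-colour arrays. The deposited values are log2 ratios of Cy5 spleen cDNA over Cy3 reference cDNA, as the authors made them. Base 2 and the direction were inferred from the values. The sources used here do not give the normalization, the spot filter or the signal over background. Precision is set by the number of arrays. Features were named through the platform's annotation with symbols updated by gene ID (23367 features matched), and features sharing 1 symbol were averaged.

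limma 3.58.1 in R 4.3.3 was fitted once to all 42 arrays with 1 coefficient per group. Genes with a value on at least 3 arrays of each group were tested, and called at a Benjamini-Hochberg adjusted p below 0.05 over all genes tested. A ± after a difference is its standard error. The fit was tested on simulated data. The 39 gene lists, the 36 panel genes, the naming rule and the motifs were chosen with earlier results of these data known, and were written from general knowledge. Named genes were measured on all CpG 9 h, CpG 3 h and untreated arrays with no overlap between the CpG groups and all features agreeing in direction: the 12 lowest early decliners, up to 12 second-wave, 6 climbing, 8 recovering and 8 late-falling genes. Added to these were up to 4 called members of each list and the panel. A few further called genes were chosen after their values were seen: Cxcl2, Csf1, Nfkbid, Tnip1, Cflar, Tnfaip2, Sod2, Cxcl5, Ccl17, Ifi205, Ifi202b, Ifi204 and Rnf213, for which single alternatives were not run. Figures used matplotlib 3.10.9. Arrays form runs where their database numbers lie within 12 of the next. Alternatives changed the arrays fitted, centring, scaling, missing-value filter, unit, spread, weights, run and replicate blocks and thresholds. The acinar covariate was chosen after seeing the data.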

Additional observations from a re-analysis of the deposited data

Results flagged for a closer look

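Among 182 groups of 4 arrays checked over the named genes, 11 held an array whose gap to its nearest neighbour passed Dixon's limit, and chance flags about 1 in 20. In CpG 9 h replicate 4, Cd14 (1.871, others -0.004 to 0.245), Adamts4 (-0.629, others -1.324 to -1.211) and Tmem273 (1.044, others 0.142 to 0.293) were high and Ccl12 (2.078, others 4.450 to 4.819) was low. In CpG 9 h replicate 2, Lrp4 (1.938, others 1.496 to 1.565) and Psmb6 (0.331, others 0.141 to 0.156) were high. In CpG 3 h replicate 2, Myc (1.048, others 0.742 to 0.771) and Ier5 (1.463, others 0.672 to 0.788) were high. In CpG 3 h replicate 4, Mrc1 was high (4.879, others 4.424 to 4.484) and Casp4 low (2.606, others 2.764 to 2.796). In CpG 3 h replicate 1, Gbp2 was low (4.500, others 4.778 to 4.828).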

How the results depend on the processing

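Of 70 named genes that were called, 24 kept their call in every fit tried, 44 without any 1 array, and 44 against the 2 CpG 3 h arrays of the same run, 26 of them losing it there. The 218 calls (174 lower, 44 higher) became 131 (107 and 24) with only the 8 arrays fitted, 580 (430 and 150) with array weights, 74 (60 and 14) with a fixed block for the runs among genes complete on the 42 arrays (194 without it), and 89 (70 and 19) within 1 run. An adjusted p below 0.01 left 110 (93 and 17), and a size of at least 1 left 81 (68 and 13). Quantile normalization raised the higher calls to 81. Leaving out 1 array gave 134 to 248 calls, 108 to 182 lower and 20 to 66 higher. Without CpG 3 h replicate 3 there were 134 in all, 108 lower and 26 higher. The lowest count of higher calls, 20, came without CpG 3 h replicate 2, the highest, 66, without CpG 9 h replicate 4, and 29, 24 and 27 remained without CpG 9 h replicates 2 and 3 and CpG 3 h replicate 1. Deviations from the group means correlated at -0.06, -0.21, 0.49 and 0.35 between arrays of equal replicate number, 1 to 4. Between arrays of unequal number they correlated at -0.41 to 0.42. Whether the replicate numbers pair the arrays was not tested, and the replicate block gave 67 calls (53 and 14). The cause of these shifts was not tested. Other alternatives kept all counts within 1.5 times. No named gene with a call changed sign. Leaving out 1 array, Ccl12 ran from -0.393 to 0.52, Egr1 from -0.344 to 0.087, Ifit1 from -0.026 to 0.203 and Dbp from -0.098 to 0.12. Named genes without a call that changed sign were Isg15 (0.007 with quantile normalization, 0.124 without CpG 9 h replicate 3, 0.043 without CpG 3 h replicate 1), Ccl12 (0.209 with array weights, 0.52 without CpG 9 h replicate 4), Egr1 (0.036 with array weights, 0.054 and 0.083 without CpG 9 h replicates 3 and 4, 0.087 without CpG 3 h replicate 2), Ifit1 (-0.007 with array weights, -0.026 without CpG 9 h replicate 2), Ifnb1 (-0.013 with the replicate block, -0.021 and -0.013 without CpG 3 h replicates 1 and 3) and Dbp (-0.079 and -0.016 without CpG 9 h replicates 1 and 3, -0.098 and -0.051 without CpG 3 h replicates 1 and 3).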

Other observations

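Several called genes fall outside the lists. Il33, an alarmin of stromal and endothelial cells, was at -1.20, -1.63, -0.78 and -1.82 in CpG 9 h spleens, against -0.01, 0.67, 0.35 and -0.18 in CpG 3 h spleens and -1.22 on average in untreated spleens (-1.56 ± 0.29, limma, adjusted p = 0.00123). Osmr, the oncostatin M receptor, was at -1.22, -1.40, -1.03 and -0.83 in CpG 9 h spleens, against 0.08, 0.06, 0.34 and 0.07 in CpG 3 h spleens (-1.26 ± 0.17, adjusted p = 1.88e-05). Kitl, the ligand of the receptor KIT, was at 0.93, 0.71, 0.84 and 0.58 in CpG 9 h spleens, against 1.41, 1.64, 1.5 and 1.56 in CpG 3 h spleens (-0.76 ± 0.13, adjusted p = 0.00061). In each of the 3 genes the groups did not overlap. Cpt1a, the carnitine transferase of fatty acid oxidation, went the other way, with 0.36, 0.67, 0.64 and 0.45 in CpG 9 h spleens, against -0.32, 0.10, -0.53 and 0.06 in CpG 3 h spleens and 0.83 on average in untreated spleens (0.70 ± 0.18, adjusted p = 0.0346). These 4 were chosen after their values were seen.

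Of the features without a single gene symbol 6957 were tested, and limma called 23, all 23 lower at 9 h and 0 higher. This was a smaller share than among genes, where 218 of 15115 were called (1.44%).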
